A study of Rattus norvegicus with 9 samples.

Results

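Heme is the iron-bearing ring that hemoglobin, cytochromes and catalase need, and 9 genes of its synthesis and breakdown were followed through peripheral blood mononuclear cells (PBMC) of rats. The genes were taken by symbol from the deposited expression table, where all 9 of 9 were found among 22077 genes and all 9 passed the filter on low counts. They are Alas1, Alas2, Alad, Uros, Urod, Cpox, Ppox and Fech on the way to heme, and Hmox1, which breaks it down. The cells came from wild-type Sprague-Dawley rats: 3 libraries from normoxia at day 0, 3 from Sugen-Hypoxia (SuHx) at day 28 and 3 from SuHx at day 56. SuHx is a rat model of pulmonary hypertension in which a blocker of VEGF receptors is combined with low oxygen. The labels give neither the age nor the sex of the rats, and do not say whether replicates are separate animals, so the p-values measure the spread between these libraries, which may be technical. Normoxia was sampled at day 0 only, so time, age and treatment cannot be told apart.

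Synthesis starts in the mitochondrion, where aminolevulinate synthase joins glycine to succinyl-CoA, moves to the cytosol for the steps from Alad to Urod, and returns to the mitochondrion for Cpox, Ppox and Fech. The synthase has a housekeeping gene, Alas1, which heme itself represses, and an erythroid gene, Alas2, which GATA1 switches on in red cell precursors and which iron controls at translation. Heme oxygenase 1, the product of Hmox1, opens the ring to biliverdin, iron and carbon monoxide. It is high in macrophages that clear red cells, and is induced when heme releases BACH1 from its promoter or when NRF2 is activated.

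The libraries held 22148400 to 39947430 exon reads and differed in how much red cell RNA they carried. Globin genes took 43.1 to 56.4% of exon reads in normoxia, 1.43, 4.84 and 29.0% in replicates 1, 2 and 3 of day 28, and 40.6 to 44.6% at day 56. Of 23 erythroid markers tested (Slc4a1, Ahsp, Epb42 and others, none of them among the 9 genes), all 23 were lower at day 28, 17 with no overlap with normoxia and 0 past the test. Their summed level was 2705 to 7135 CPM in normoxia, 162 to 1960 at day 28 and 3229 to 3631 at day 56, where CPM is the exon read level after TMM scaling to a common library size. Monocyte and macrophage markers summed to 2205 to 4567 CPM in normoxia, 3391 to 10826 at day 28 and 1809 to 2805 at day 56. Platelet markers summed to 635 to 3102 CPM in normoxia, 505 to 807 at day 28 and 1751 to 3482 at day 56. All 7 platelet markers tested were lower at day 28 and higher again at day 56 than at day 28, 6 of them with no overlap between the days, and 0 passed the test in either comparison. Their part in the levels of the heme genes was not tested. T cell and B cell markers, whose cells make up much of PBMC, were present throughout, at sums of 1043 to 1728 and 445 to 1478 CPM. Marco had 0 reads in normoxia, and Cd163 and Marco had 0 at day 28. Normoxia replicate 1 carried 14.6% intron reads, against 6.60 and 5.37% in its group, with 14.2 to 24.9% at day 28 and 11.9 to 16.9% at day 56.

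On this scale the heme genes split at day 28. Alas2, Alad, Urod, Fech and Ppox were lower than in every normoxia library, while Alas1 and Hmox1 were higher than in every one. The 5 that were lower compare with 11.8% of all 12447 tested genes, and the 2 that were higher with 11.4% (23.2% together). None of the 9 passed the test at day 28 in edgeR (adjusted p under 0.05 over all genes tested; 0.129% of genes did). At an unadjusted p under 0.05 there were 2 higher and 5 lower, against 28.8% of all genes in either direction, and DESeq2 called 4, all lower (13% of all genes). The median log2 fold change of the 9 was -0.60, beside -0.01 over all genes. In bulk RNA, fewer cells of a type and less RNA per cell cannot be told apart.

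**Figure D1:**
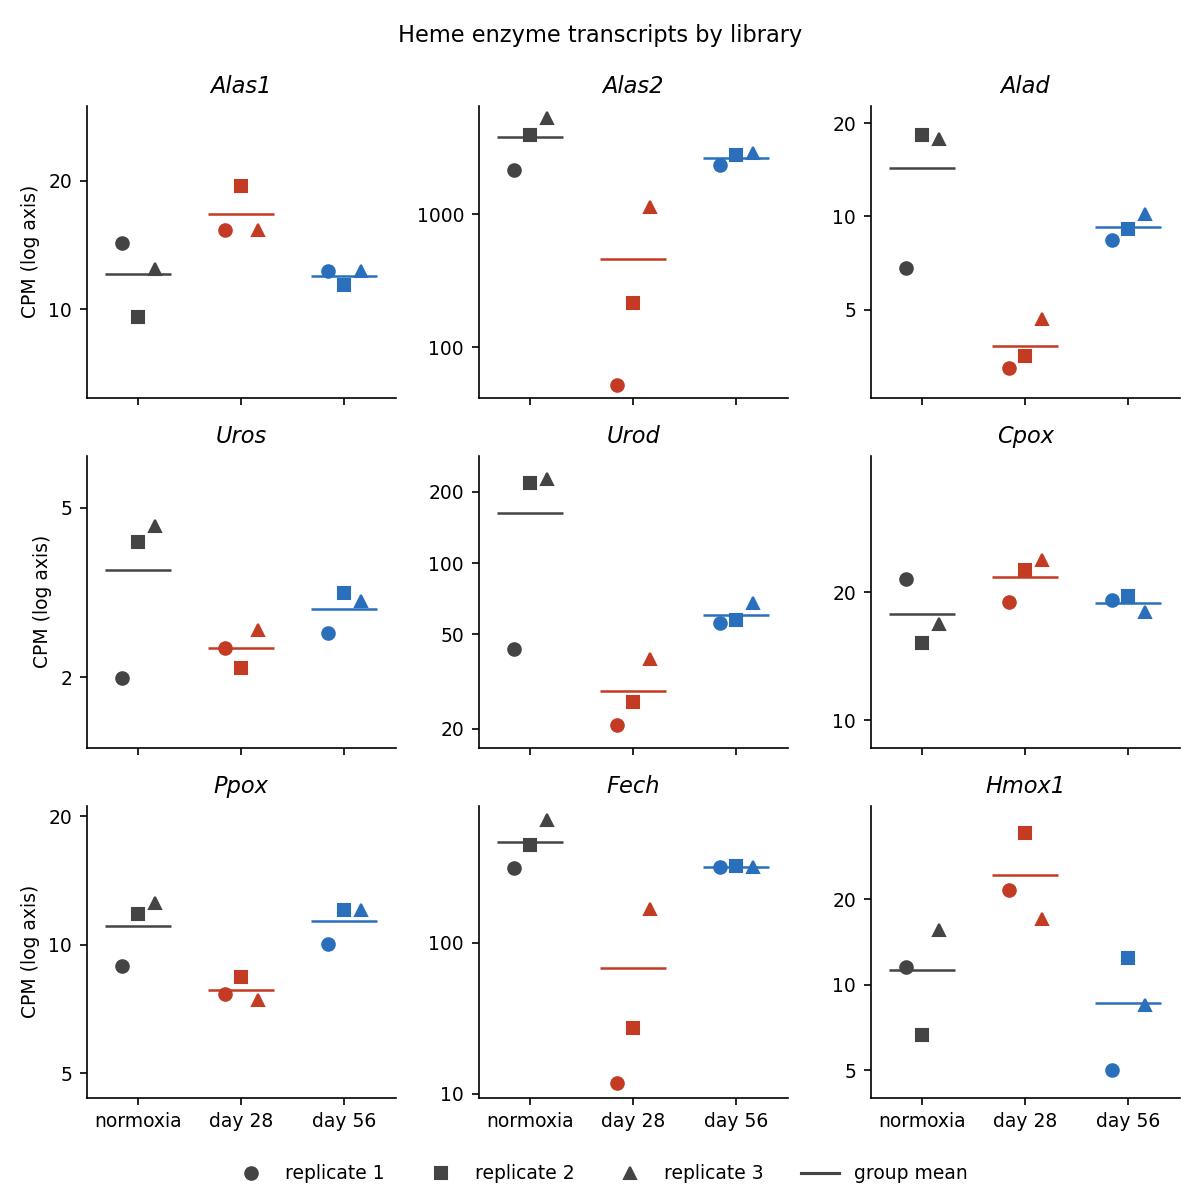
Level of each of the 9 genes (CPM, log axis, scaled per panel) in the 9 libraries, by group, with replicates 1, 2 and 3 as circle, square and triangle and the group mean as a line. Alas2 lay at 52.5, 214 and 1124 CPM at day 28, under all other libraries, while Alas1 and Hmox1 at day 28 lay above all other libraries.

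Alas2 (ENSRNOG00000000167, chromosome X, 23167695 to 23187341, rn6) encodes the erythroid synthase and was the most abundant of the 9 per length in every library. It measured 2133, 3934 and 5225 CPM in normoxia, then 52.5, 214 and 1124 at day 28, and 2318, 2797 and 2856 at day 56. The day 28 libraries were all lower than the other 6 and far apart from each other, with replicate 3 well above replicates 1 and 2. The log2 fold change was -3.02 at day 28 (SE 0.90, adjusted p = 0.0986), an 8.12-fold lower level that did not pass. At day 56 it was -0.50 against normoxia (SE 0.84, adjusted p = 0.713), and 2.52 against day 28 (SE 0.88, adjusted p = 0.170). Without day 28 replicate 3 the day 28 difference passed, and so it did without normoxia replicate 1. With the level of the erythroid markers as a covariate it became 0.11 (adjusted p = 1.00), with the globin share -0.80 and with the intron share -1.06.

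Set against globin reads, Alas2 was far steadier than set against all reads. It gave 5.04, 5.41 and 5.31 reads per 1000 globin reads in normoxia, 6.25, 6.86 and 4.67 at day 28, and 5.50, 6.08 and 5.58 at day 56. Day 28 overlapped both other groups on that ratio, and every day 56 library was above every normoxia library. Per 1000 exon reads, by contrast, Alas2 ran from 0.0892 in day 28 replicate 1 to 2.99 in normoxia replicate 3. Its CPM, which also carries the TMM factors, spanned 99.4-fold from the lowest to the highest library. Against the mean log2 CPM of the erythroid markers, Alas2 stood 6.21 to 6.53 higher in normoxia and 5.99 to 6.35 higher at day 56. The day 28 values of that log2 difference were 4.66, 5.43 and 6.19, of which replicates 1 and 2 lay below every other library. Red cell content moved with Alas2 in these libraries. The mean log2 CPM of the erythroid markers was 1.06 to 3.94 at day 28 and 4.53 to 5.92 in normoxia, without overlap. The erythroid covariate above thus cannot be separated from the group, and the part of red cell content in the difference was not tested.

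Fech (ENSRNOG00000018053, chromosome 18, 59941991 to 59975192, rn6), which inserts iron into the ring as the last step, moved through the libraries as Alas2 did. The levels were 313, 440.2 and 646 CPM in normoxia, 11.8, 27.5 and 166 at day 28, and 319, 320.5 and 316 at day 56. Again all day 28 libraries were under all others, and the day 56 libraries were close together (319 ± 2.06 CPM, SD, n = 3). The log2 fold change was -2.77 at day 28 (SE 0.81, adjusted p = 0.0950), -0.55 at day 56 (SE 0.76, adjusted p = 0.650), and 2.22 between the days (SE 0.79, adjusted p = 0.177). Over the 9 libraries the log2 CPM of Fech and Alas2 had a Pearson correlation of 0.995. That value is a description, since the libraries share 1 scaling and the spread in red cell RNA. Per length, Fech stood at 6.54 to 13.3% of the RPKM of Alas2. The highest of these shares was in day 28 replicate 1, which had the least globin.

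**Figure D2:**
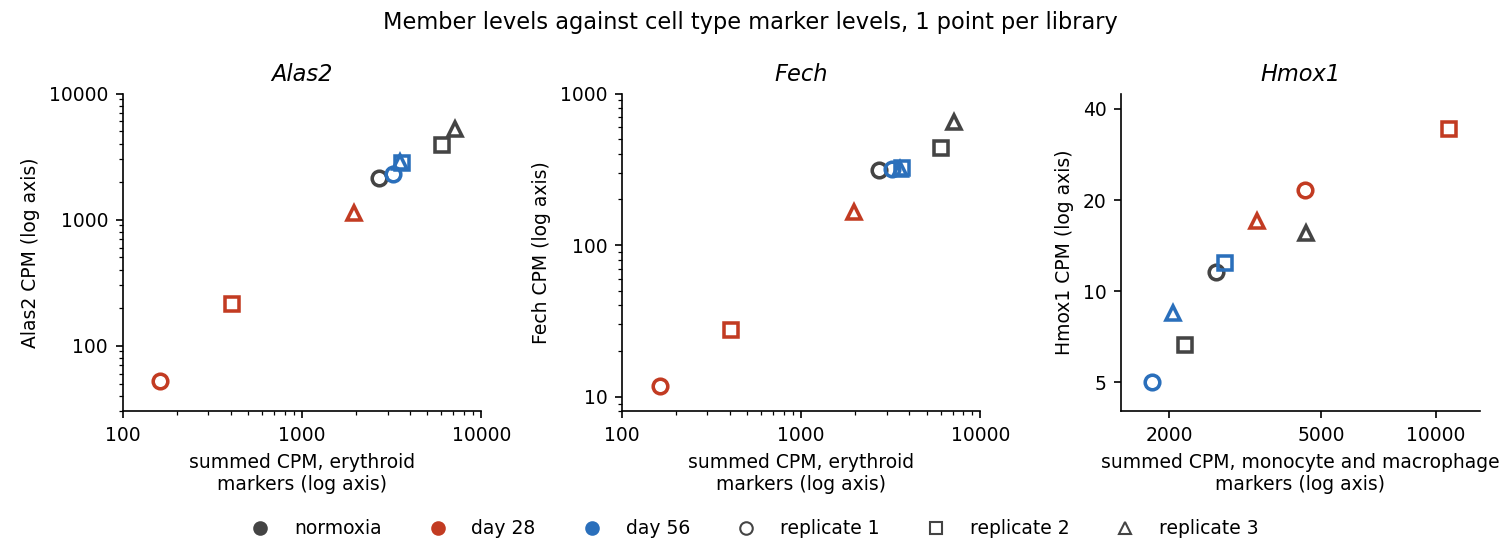
Level of Alas2 and Fech against the summed level of erythroid markers, and of Hmox1 against that of monocyte and macrophage markers (all CPM, log axes; 1 point per library, colour for group, shape for replicate). The day 28 libraries with 162, 405 and 1960 CPM of erythroid markers held 52.5, 214 and 1124 CPM of Alas2, and the library with the most monocyte marker reads, 10826 CPM, held the most Hmox1, 34.2 CPM.

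The intron reads set Alas2 apart from Fech and from most of the other genes. For Alas2 they made up 12.3 to 13.8% of exon and intron reads in every library, so that its intron level ran from 7.37 to 805 CPM, a 109-fold range. The intron level of Fech was 4.41, 2.69 and 3.50 CPM in normoxia, 4.41, 4.16 and 3.52 at day 28, and 5.04, 5.38 and 3.75 at day 56. It thus spanned 2.00-fold and overlapped between all groups, while the exon level of Fech spanned 54.7-fold. As a share, introns took 27.2% of the Fech reads in day 28 replicate 1 and 0.540% in normoxia replicate 3.

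**Figure D3:**
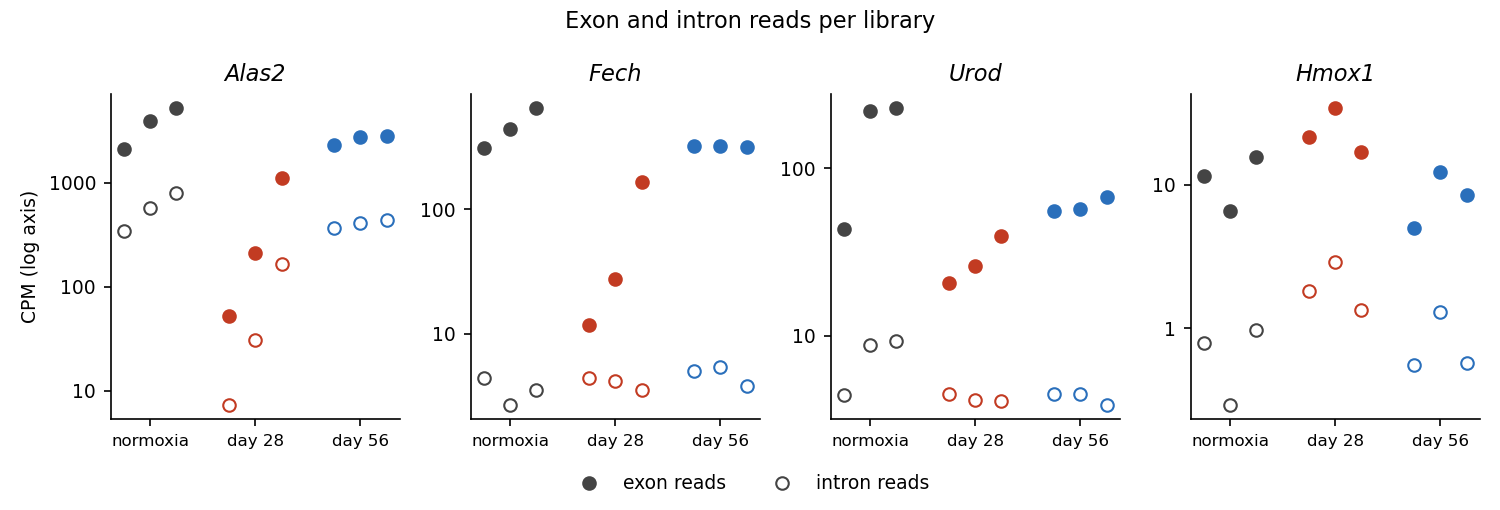
Exon reads (filled) and intron reads (open) of Alas2, Fech, Urod and Hmox1 in each library (CPM, log axis, scaled per panel), with replicates 1 to 3 from left to right in each group. The intron level of Alas2 spanned 109-fold and that of Fech 2.00-fold, while the exon level of Fech spanned 54.7-fold.

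The cytosolic steps lie between the synthase and the return to the mitochondrion. Alad (ENSRNOG00000015206, chromosome 5, 78368866 to 78379346, rn6) condenses aminolevulinate to porphobilinogen. Its levels were 6.83, 18.3 and 17.8 CPM in normoxia, 3.24, 3.53 and 4.67 at day 28, and 8.39, 9.08 and 10.2 at day 56. Of the 9 genes Alad came closest to the threshold at day 28 (adjusted p = 0.0556, log2 fold change -1.91, SE 0.35), and it passed in 8 of 21 alternatives. At day 56 the value was -0.63 (SE 0.34, adjusted p = 0.228), and between the days 1.27 (SE 0.35, adjusted p = 0.103). Normoxia replicate 1 lay below all day 56 libraries and the other normoxia libraries above them.

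Urod (ENSRNOG00000018211, chromosome 5, 135855432 to 135859643, rn6) removes carboxyl groups from uroporphyrinogen. It was at 43.5, 219 and 228 CPM in normoxia, 20.8, 26.0 and 39.5 at day 28, and 55.9, 57.4 and 67.7 at day 56. Normoxia replicate 1 was thus closer to day 28 replicate 3 than to its own group. The log2 fold change was -2.51 at day 28 (SE 0.53, adjusted p = 0.0654), -1.44 at day 56 (SE 0.51, adjusted p = 0.100) and 1.07 between the days (SE 0.51, adjusted p = 0.302). The intron level of Urod stood at 8.83 and 9.34 CPM in replicates 2 and 3 of normoxia but at 3.89 to 4.50 CPM everywhere else. The exon level of Urod in normoxia replicate 1 was below all day 56 libraries, and in replicates 2 and 3 far above them.

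Uros (ENSRNOG00000017810, chromosome 1, 205756639 to 205777167, rn6), which closes the ring, was the least abundant of the 9 per length in every library. Its CPM was 2.00, 4.16 and 4.54 in normoxia, 2.34, 2.11 and 2.59 at day 28, and 2.54, 3.15 and 3.02 at day 56, from 48 to 113 reads. The groups overlapped, and no comparison passed (adjusted p = 0.228, 0.556 and 0.675 for day 28, day 56 and between the days).

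The late mitochondrial steps before Fech moved little. Cpox (ENSRNOG00000001654, chromosome 11, 44039668 to 44049648, rn6), the coproporphyrinogen oxidase, was at 21.4, 15.2 and 16.8 CPM in normoxia, 18.9, 22.5 and 23.7 at day 28, and 19.2, 19.5 and 18.0 at day 56. Ppox (ENSRNOG00000003567, chromosome 13, 89650093 to 89654244, rn6), the protoporphyrinogen oxidase, was at 8.91, 11.8 and 12.5 CPM in normoxia, 7.66, 8.40 and 7.42 at day 28, and 10.03, 12.1 and 12.1 at day 56. Cpox overlapped between all groups and did not pass at day 28 (adjusted p = 0.281, log2 fold change 0.29, SE 0.17). For Ppox the day 28 libraries were under all others, a difference from normoxia that did not pass either (adjusted p = 0.130, log2 fold change -0.50, SE 0.18). Neither gene passed in the other comparisons (adjusted p = 0.768 and 0.896 at day 56, 0.601 and 0.159 between the days).

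Alas1 (ENSRNOG00000056596, chromosome 8, 114927721 to 114940177, rn6), the housekeeping synthase, was at 14.3, 9.57 and 12.5 CPM in normoxia, 15.3, 19.5 and 15.4 at day 28, and 12.3, 11.4 and 12.3 at day 56. The day 28 libraries were above all others, but the difference from normoxia did not pass (adjusted p = 0.150, log2 fold change 0.47, SE 0.19). Between the days the value was -0.48 (SE 0.19, adjusted p = 0.212), and at day 56 against normoxia -0.01 (SE 0.19, adjusted p = 0.973). The sign of that last value turned under several alternatives. Liver is a rich source of Alas1, and 4 liver markers summed to 0.152 to 2.01 CPM in these libraries.

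The balance of the synthases shows the split most plainly. The RPKM of Alas2 was 175, 480 and 490 times that of Alas1 in normoxia, 4.002, 12.8 and 85.6 times at day 28, and 220.1, 287 and 271 times at day 56. Alas2 exceeded Alas1 in every library. The day 28 ratios were all lower than those of the other 6 libraries. That follows from the levels above, since Alas2 at day 28 lay under and Alas1 above all other libraries.

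Hmox1 (ENSRNOG00000014117, chromosome 19, 14508615 to 14515456, rn6), the inducible heme oxygenase, was at 11.5, 6.62 and 15.6 CPM in normoxia, 21.6, 34.2 and 17.0 at day 28, and 4.998, 12.4 and 8.48 at day 56. All day 28 libraries were above all others, with day 28 replicate 3 only just above normoxia replicate 3. The log2 fold change was 1.12 at day 28 (SE 0.41, adjusted p = 0.128), -0.38 at day 56 (SE 0.41, adjusted p = 0.555) and -1.50 between the days (SE 0.41, adjusted p = 0.105). At day 28 Hmox1 passed in 0 of 21 alternatives, the lowest adjusted p being 0.0527, and it was higher in all of them. Between the days it passed in 1 of 21, DESeq2.

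The intron level of Hmox1 ran with its exon level, at 0.791, 0.294 and 0.973 CPM in normoxia, 1.81, 2.89 and 1.34 at day 28, and 0.560, 1.303 and 0.570 at day 56. The day 28 libraries again were above all others. Day 28 replicate 3 (42 intron reads) was only just above day 56 replicate 2 (31 intron reads). The share of all genes with such a gap in intron level is not given here. Intron reads over all genes were 14.2 to 24.9% at day 28 and 5.37 to 14.6% in normoxia. Hmox2, the constitutive heme oxygenase, overlapped between normoxia and day 28 (log2 fold change 0.11, SE 0.19, adjusted p = 0.707), so the RPKM of Hmox1 over that of Hmox2 was 0.288 to 0.768 in normoxia, 0.977 to 1.43 at day 28 and 0.233 to 0.560 at day 56. Monocyte and macrophage markers moved with Hmox1: 11 of 12 tested were higher at day 28, 5 with no overlap with normoxia and 0 past the test, and all 12 were lower at day 56 than at day 28. Neutrophil markers summed to 45.2 to 94.9 CPM in normoxia, 102 to 271 at day 28 and 62.1 to 106 at day 56, with 0 of 6 tested past the test. The part of either marker list in the level of Hmox1 was not tested.

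**Figure D4:**
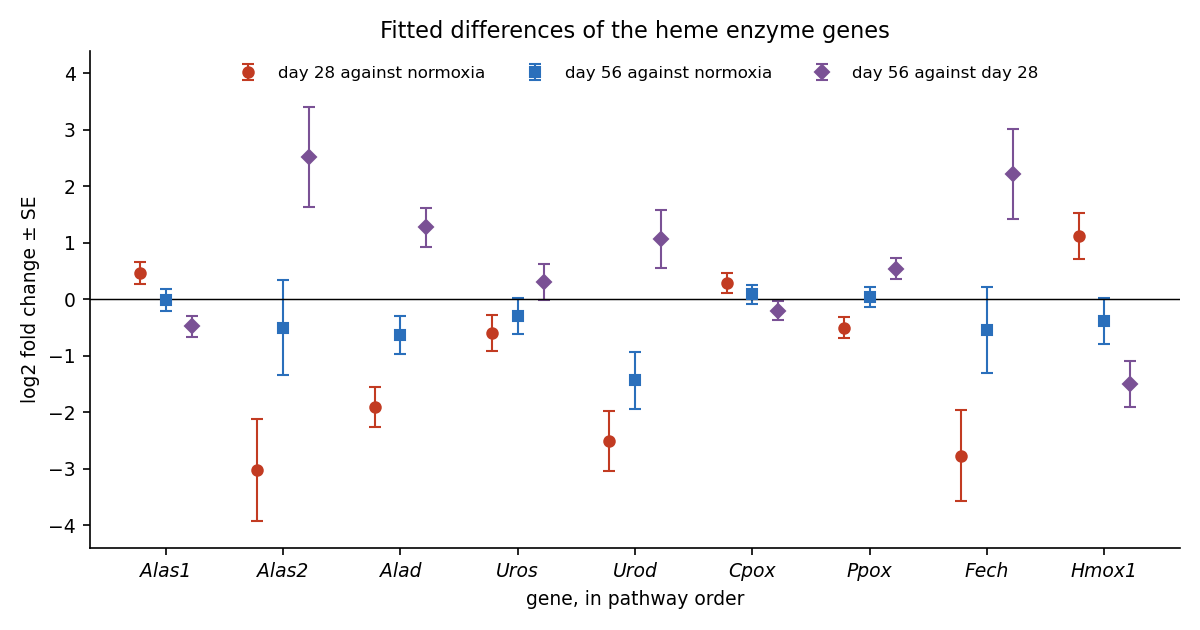
Log2 fold change with its standard error (SE) for each of the 9 genes in pathway order, for day 28 and day 56 against normoxia (3 libraries a group) and for day 56 against day 28. At day 28 the values ran from -3.02 for Alas2 to 1.12 for Hmox1, at day 56 from -1.44 for Urod to 0.09 for Cpox, and none passed the test.

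At day 56 the log2 fold changes against normoxia were between -0.63 and 0.09 for 8 of the 9 genes, and -1.44 for Urod. None was called, where 7.12% of all genes were, and 0 of 9 had groups that did not overlap, where 30.4% of all genes did. At an unadjusted p under 0.05 there were 0 higher and 1 lower (Urod), and DESeq2 called 1, Urod (30.9% and 18.4% of all genes). The median log2 fold change was -0.38, beside -0.04 over all genes. The largest difference was that of Urod, and only normoxia replicates 2 and 3 lay above the day 56 libraries. Numbers in the column headers, whose meaning the labels do not give, put normoxia replicate 1 (46) next to day 56 replicate 1 (47), and the other normoxia and day 56 libraries together (61 to 64). Between the neighbours 46 and 47, Urod went from 43.5 to 55.9 CPM. In the numbers 61 to 64 it went from 219 and 228 to 57.4 and 67.7 CPM, the opposite direction. With these numbers as a block and day 28 left out, an alternative chosen after seeing the data, the log2 fold change of Urod was -1.11 (adjusted p = 0.124). The day 28 libraries carry the numbers 68 to 70, so no such check can be made for day 28.

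From day 28 to day 56 the order turned round. Alas2, Alad, Urod, Ppox and Fech were higher in every day 56 library than in every day 28 library, and Alas1 and Hmox1 lower. The 5 that were higher compare with 17.8% of all genes and the 2 that were lower with 17.4% (35.2% together). None was called, where 0.546% of genes were, with 4 higher and 2 lower at an unadjusted p under 0.05 (18.5% of all genes), and DESeq2 called 3: Alas2 and Alad higher and Hmox1 lower (8.13% of all genes). The median log2 fold change was 0.54, beside -0.01 over all genes. These comparisons share libraries with those against normoxia, so the values are not independent of them.

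The calls changed when normoxia replicate 1 or day 28 replicate 3 was left out. Without normoxia replicate 1, 8 of 9 genes passed at day 28 (all but Hmox1), Alas1 and Cpox rising and the other 6 falling, but then 45.2% of all genes passed. At day 56 Alad and Urod passed without it (43% of all genes), and Alad, Urod and Ppox passed between the days (7.89%). Without day 28 replicate 3, Alas2, Alad and Fech passed at day 28 (3.07% of all genes), and Alas2 and Fech between the days (2.08%). With both left out, a choice made after seeing the data, 8, 2 and 4 genes passed in the 3 comparisons, where 46.4%, 45.8% and 10.6% of all genes did. Alad also passed at day 28 with upper-quartile factors, with no filter and on uniquely mapped reads (0.635%, 0.89% and 0.602% of all genes). Between the days Alad passed when only those groups were fitted (4.8%). With the erythroid markers, globin share or intron share as a covariate, 0 of 9 passed in any comparison. Few genes of any kind passed in those fits: 0.00803% of all genes at day 28 in each. At day 56 it was 6.28, 4.04 and 1.11% in that order, and between the days 0.0161, 0 and 0.49%.

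The scale bears on the genes that moved least. Without TMM factors the median log2 difference of all tested genes was 1.00 at day 28, 0.31 at day 56 and -0.68 between the days. On that scale Ppox and Uros were at log2 differences of 0.51 and 0.48 at day 28, and at -0.49 and -0.52 once the shift of all genes is taken off, so their direction turned only with the shift. Alas2, Fech, Alad and Urod stayed lower at day 28, at -2.92, -2.56, -0.79 and -1.22, and Hmox1, Alas1 and Cpox stayed higher, at 2.13, 1.48 and 1.30. At day 56 Alas1 and Uros were at 0.34 and 0.12 on that scale, and at 0.03 and -0.20 with the shift taken off. Between the days Uros and Ppox were at -0.36 and -0.13, and at 0.31 and 0.55 with the shift taken off. The deposited RPKM is not scaled by these factors either: on it the day 28 and normoxia libraries overlapped for Ppox and Urod, and Cpox was higher at day 28 with no overlap. On RPKM at day 56, Ppox was higher and Fech lower than normoxia with no overlap. The share of all genes with no overlap on RPKM is not given here. Without the factors the median of all genes was itself higher, by 1.00 at day 28 and 0.31 at day 56.

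By mean RPKM the order in normoxia was Alas2 (1281 ± 283, SD, n = 3), Fech (94.7 ± 14.8), Urod (70.1 ± 38.6), Alad (4.91 ± 1.605), Hmox1 (4.50 ± 1.76), Cpox (4.21 ± 1.74), Alas1 (3.83 ± 1.52), Ppox (3.79 ± 0.211) and Uros (1.35 ± 0.299). The ranges of Fech and Urod overlapped, as did those of each neighbouring pair from Alad to Ppox. At day 28 the order was Alas2 (258 ± 305), Fech (22.5 ± 26.4), Urod (22.3 ± 5.12), Hmox1 (16.7 ± 6.93), Alas1 (8.71 ± 1.71), Cpox (8.33 ± 0.602), Ppox (4.603 ± 0.650), Alad (2.31 ± 0.212) and Uros (1.57 ± 0.112). Here each neighbouring pair from Alas2 to Cpox overlapped, and Fech was as low as rank 7 in replicate 1. At day 56 it was Alas2 (1112 ± 125), Fech (78.8 ± 2.57), Urod (32.9 ± 2.82), Cpox (5.03 ± 0.347), Ppox (4.62 ± 0.495), Alas1 (4.30 ± 0.110), Hmox1 (4.05 ± 1.81), Alad (3.90 ± 0.327) and Uros (1.35 ± 0.163), with overlap between neighbours only from Cpox to Alad.

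The stretches before the start of transcription are printed for 3 genes, picked by their patterns in these data. Fech ran with Alas2, Urod only in part, and Alas1 against both. RefSeq gives windows (GRCr8) for 7 of the 9 genes, of which 4 (Alad, Urod, Alas1 and Fech) begin at the outer start of the gene and were used. Each line is the 250 bases before the start, from the minus strand, 5′ to 3′. Fech lies at chr18:60248526-60248775, Urod at chr5:135705381-135705630 and Alas1 at chr8:115768643-115768892. Capitals mark matches to the GATA letters AGATAA or TGATAA and to the CACCC box letters CCNCNCCC, on either strand.
Fech: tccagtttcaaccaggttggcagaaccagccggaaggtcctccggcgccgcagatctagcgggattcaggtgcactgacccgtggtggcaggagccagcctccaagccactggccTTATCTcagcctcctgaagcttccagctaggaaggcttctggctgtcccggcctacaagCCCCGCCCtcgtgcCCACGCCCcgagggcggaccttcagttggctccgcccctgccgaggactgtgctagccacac
Urod: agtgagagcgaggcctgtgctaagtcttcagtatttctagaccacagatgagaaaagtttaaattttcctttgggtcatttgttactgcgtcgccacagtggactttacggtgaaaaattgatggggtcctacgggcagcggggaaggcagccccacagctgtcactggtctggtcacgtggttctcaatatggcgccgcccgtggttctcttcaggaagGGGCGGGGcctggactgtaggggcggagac
Alas1: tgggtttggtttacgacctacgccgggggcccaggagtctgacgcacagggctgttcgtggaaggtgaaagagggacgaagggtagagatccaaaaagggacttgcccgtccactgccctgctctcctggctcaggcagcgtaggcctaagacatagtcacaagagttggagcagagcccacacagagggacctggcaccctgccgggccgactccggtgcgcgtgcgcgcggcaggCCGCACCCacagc
Of the 4 windows only that of Fech held a GATA match, AGATAA on the other strand, from -135 to -130 before the start. Alad, not printed, held none, though it ran closer to Alas2 (correlation 0.87) than Urod did (0.80). A link between these letters and the patterns was not tested. Of all 33469 windows 16.9% held AGATAA or TGATAA on either strand. The loose form of the CACCC box, CCNCNCCC, was in all 4 windows, with 2 matches in Fech that do not overlap and 2 in Alad that do, and in 42.8% of all windows. The stricter form CCACACCC (2.84% of all windows) was not found in them. Of the matches only that in Alas1, CCGCACCC, holds the letters CACCC themselves. The AHR core GCGTG was in Fech, Alad and Alas1 (25.9% of all windows), overlapping a CACCC match in Fech. The hypoxia core ACGTG was in Urod and Alad, on both strands of the same palindrome (16.6%). The antioxidant response letters TGACNNNGC and the longer Maf recognition elements (by name alone) were in 0 of the 4 (10.1% of all windows held any of these). A match is only a match of letters.

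Other genes of the pathway came from lists chosen with earlier results known. Of 14 genes for transport, cofactors and chaperones, 1 fell at day 28 (0.0402% of all genes did) and 1 rose between the days (0.426%). Both times it was Slc25a37 (mitoferrin 1, which brings iron into the mitochondria of red cell precursors). Slc25a37 went from 35.6 ± 7.77 CPM (SD, n = 3) in normoxia to 12.1 ± 2.81 at day 28 (log2 fold change -1.55, SE 0.21, adjusted p = 0.0459) and 30.3 at day 56, where it rose over day 28 (1.32, SE 0.21, adjusted p = 0.0330). The fall was called in 9 of 21 alternatives and the rise in 13 of 21. Both were lost with the globin share (adjusted p = 0.790 and 0.525), the intron share (0.893 and 0.0662) or the erythroid markers (1.00 and 0.535) as a covariate. Each was lost without either of day 28 replicates 1 and 2 and without any day 56 library, and the fall also without normoxia replicate 2 or 3. At day 56 against normoxia 0 of 14 were called, and Tmem14c, which carries protoporphyrinogen inward, was at a log2 fold change of -0.66 (adjusted p = 0.171).

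Of 6 other heme enzymes 0 were called in any comparison. Blvrb, a biliverdin reductase abundant in red cells, was at a log2 fold change of -2.55 at day 28 (adjusted p = 0.0805). At day 56 the smallest p were those of Blvra, the other biliverdin reductase (-0.86, adjusted p = 0.150), and Blvrb (-1.28, adjusted p = 0.175). Between the days Blvra was at -1.13 (adjusted p = 0.152). Blvrb was at 1.27 between the days (adjusted p = 0.297). Every day 56 library was above every day 28 library for Blvrb and below every one for Blvra. Of all genes 17.8% were higher in that way and 17.4% lower.

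Among 14 tested regulators of heme genes, 2 rose at day 56, where 3.42% of all genes did. Mafk, a small Maf protein that pairs with BACH1 or NRF2 on the Hmox1 enhancers, went from 20.9 CPM to 78.7 (log2 fold change 1.91, SE 0.19, adjusted p = 0.00157) and was called in 22 of 22 alternatives. Nr1d1, a heme-binding nuclear receptor of the circadian clock, rose from 3.31 to 7.71 CPM (1.22, SE 0.27, adjusted p = 0.0331). The call of Nr1d1 held in 13 of 22 alternatives and was lost without normoxia replicate 2 or 3, day 28 replicate 1 or any day 56 library, and with the globin share (adjusted p = 0.0505) or the intron share (0.111) as a covariate. At day 28 none was called, Mafk (0.95, adjusted p = 0.0609) and the heme-sensing kinase Eif2ak1 (-0.86, adjusted p = 0.0813) having the smallest p. Between the days none was called, with Mafk (0.97, adjusted p = 0.0559) and the erythroid factor Gata1 (3.87, adjusted p = 0.0970) nearest. Gata1 had 0 reads in 1 library, so its fitted value depends on the prior count.

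Of 10 NRF2 and BACH1 targets tested beside Hmox1, 2 rose at day 56 (3.42% of all genes did), where Hmox1 itself was not higher than in normoxia. They were Nqo1, a quinone reductase (log2 fold change 1.64, SE 0.35, adjusted p = 0.0289), and Osgin1 (1.77, SE 0.42, adjusted p = 0.0407). The call of Nqo1 held in 16 of 22 alternatives and that of Osgin1 in 8 of 22, and each was lost without normoxia replicate 2 or 3 or any day 56 library. Both calls were lost with the intron share as a covariate (adjusted p = 0.133 for Nqo1 and 0.139 for Osgin1). That of Osgin1 was also lost without any day 28 library and with the globin share (0.0632) or the erythroid markers (0.0510) as a covariate. At day 28 none was called, with Nqo1 (2.23, adjusted p = 0.0534) and Txnrd1, thioredoxin reductase (1.15, adjusted p = 0.0534), nearest, both higher with no overlap with normoxia. Gclm (-2.67, adjusted p = 0.0835) and Ftl1 (-1.38, adjusted p = 0.0796) were lower with no overlap. The list was split, with 4 higher and 4 lower at an unadjusted p under 0.05 (28.8% of all genes in either direction). Between the days none was called, with the ferritin chains Ftl1 (1.31, adjusted p = 0.0949) and Fth1 (1.45, adjusted p = 0.118) nearest. Srxn1 and Slc40a1 were not analysed here.

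Of 4 tested genes for the scavenging of heme and hemoglobin 0 were called. Lrp1, the receptor for heme bound to hemopexin, had the smallest p at day 28 (log2 fold change 1.74, adjusted p = 0.117) and between the days (-1.69, adjusted p = 0.169). Stab1 was next at day 28 (-0.73, adjusted p = 0.467) and between the days (1.30, adjusted p = 0.332), and had the smallest p at day 56 (0.57, adjusted p = 0.580) before haptoglobin, Hp (-0.36, adjusted p = 0.778). Cd163 and Hpx did not pass the filter on low counts.

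The genes whose log2 CPM ran closest to Alas2 over the 9 libraries were Add2 and Bpgm (Pearson correlation 0.999 and 0.999), of which Add2 encodes a protein of the red cell membrane skeleton and Bpgm is among the erythroid markers, then LOC103694857, LOC689064 and Hba-a2_1 (0.998, 0.998 and 0.997), all counted here as globin genes. Those closest to Alas1 were Osbpl2 (0.982), Ccdc88a (0.978), Cd80 (0.975), Fam20b (0.975) and Rnf41 (0.966). Those closest to Hmox1 were Npr1 (0.991), Tifab (0.979), Prkcd (0.978), AABR07030729.1 (0.977) and Cd300e (0.977), the last a receptor of monocytes. Between the 9 genes, Alas1 correlated at -0.72 with Alas2 and 0.81 with Hmox1, and Cpox at 0.79 with Alas1. All these likenesses are over the same 9 libraries and the same scaling, and are descriptions.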

How the data were processed

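RNA-seq of rat PBMC was deposited as 1 table per gene. It holds counts of exon, intron and junction reads and the RPKM that the authors made from exon reads, per the file headers. Some deposited columns were handled as estimated counts, since they are not whole on the broken lines below; on all lines used they were whole. The submitters' processing notes name FastQC and the rn6 build; the aligner is not given in the sources used here. A further 72 columns of per-sample values were not used, and 8 broken lines (Bmp4, Ctnnb1, Shh and Wnt5a) were left out, leaving 22077 genes.

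Exon read counts were fitted over all 9 libraries with edgeR 4.0.16 (TMM factors, filterByExpr, quasi-likelihood test; limma 3.58.1, R 4.3.3), with Benjamini-Hochberg adjustment over 12447 genes and a threshold of 0.05. The biological coefficient of variation was 0.28. Intron CPM uses the same scaling as exon CPM. Levels between genes use the deposited RPKM. Globin shares cover 11 genes, of which 2 unnamed loci were added after seeing the data. The fit was tested on simulated data. Alternatives were RLE and upper-quartile factors, no filter, DESeq2 1.42.0, uniquely mapped reads, globin genes removed, globin, intron or erythroid covariates, a replicate block, only the groups compared, and each library left out.

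The genes and lists were chosen with earlier results of these data known. Named beside the 9 genes are the called genes of each list (at most 4 a comparison) or the 2 of smallest p (some of these are not reported here), and the 5 nearest patterns of Alas2, Alas1 and Hmox1.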

Additional observations from a re-analysis of the deposited data

How the results depend on the processing

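Over the alternatives, 48 counts of called heme genes kept their main value of 0 and 16 did not; of the log2 fold changes of single genes, 916 kept direction and side of the threshold, 110 passed only under the alternative, 49 no longer passed and 34 turned sign. Of the counts of called genes per list, 211 stayed within 1.5 times, 66 were higher and 43 lower. The cause was not tested. Called at day 28 were 1 with upper-quartile factors, 1 with no filter, 1 with uniquely mapped reads, 4 in DESeq2, 2 with a replicate block, 8 without normoxia replicate 1 and day 28 replicate 3 together (chosen after seeing the data), and 0 to 8 with 1 replicate left out. At day 56 these were 1 in DESeq2, 2 with both libraries out and 0 to 2 with 1 replicate out. Between the days they were 3 in DESeq2, 1 with only the groups compared, 4 with both out and 0 to 3 with 1 replicate out. All genes called ran from 1 to 5875 (main 16) at day 28, from 85 to 5790 (886) at day 56, and from 0 to 1336 (68) between the days. Called genes of the lists ran, in the order day 28, day 56 and between the days, over 0 to 10, 1 to 5 and 0 to 5 for regulators, 0 to 6, 0 to 5 and 0 to 5 for cofactors and transport, 0 to 7, 0 to 5 and 0 to 4 for NRF2 and BACH1 targets, 0 to 3 in each for other enzymes, and 0 to 1, 0 to 0 and 0 to 1 for scavenging.

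Log2 fold changes that turned sign at day 28 were, with the erythroid covariate, Alas2 (0.11), Uros (0.0528), Blvrb (0.0274) and Stab1 (0.76), with the intron share Uros (0.20), and with the globin share Stab1 (0.92). At day 56 those with the intron share were Alas2 (0.87), Uros (0.11), Fech (0.62) and Hp (1.27). Alas1 turned with RLE factors (0.0038), DESeq2 (0.0077), only the groups compared (0.0118), the column number as a block (0.0249) and both libraries out (0.15), and ran from -0.16 to 0.15 with 1 library left out. With 1 library left out Cpox ran from -0.0204 (without normoxia replicate 2) to 0.26, Ppox from -0.0775 (without normoxia replicate 1) to 0.14 and Hp from -0.84 to 0.41 (without normoxia replicate 3). Ppox also turned with both out (-0.0772), and Hp with the erythroid covariate (0.20), the replicate block (0.18) and the column number (0.0215). Between the days those with the erythroid covariate were Alas2 (-0.29), Uros (-0.27), Urod (-0.54), Fech (-0.21) and Stab1 (-0.17), with the intron share Uros (-0.0911), and with the globin share Stab1 (-0.24).

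Replicates with the same number did not deviate together (correlations of deviations from -0.15 to 0.17). Libraries within a group differed widely in red cell RNA (globin 1.43 to 29.0% at day 28), so low correlations cannot exclude a pairing. With the replicate block 2 heme genes, Alad and Urod, were called at day 28 (with 223 of all genes), 0 at day 56 and 0 between the days. Each group has 3 libraries, and Uros rests on as few as 48 reads in a library. Pairs of replicate libraries differed by far more than counting error, at a chi-square per degree of freedom of 29.9 to 610. The labels do not say whether that spread is between rats.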
